A study of Mus musculus with 3 samples.

Results

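Natural killer (NK) cells of the postnatal lung were described from scRNA-Seq libraries of 3 wild-type C57BL/6 mice, numbered 2, 3, and 4, whose whole lungs were taken at P14 after room air (RA) from day 1 to day 14. All 3 mice belonged to 1 group and were the replicates, with no treated group, and the labels name no sort before the 10x 3' capture. A cell was taken as an NK cell from its own unique molecular identifiers (UMIs, counts of captured RNA molecules), as chosen by at least 3 Nkg7 UMIs, at least 2 UMIs of Klrb1c, Ncr1, and Klre1 together, and no UMI of Cd3e, Trac, or Cd79a. This gate held 77 of 7642 cells kept for having 200 genes or more and no more than 20% mitochondrial UMIs, out of 9644 cells in the deposited matrices, which held 23744510, 22476491, and 25192427 UMIs in mice 2, 3, and 4. The comparison groups were 229 T cells (at least 1 UMI of Cd3e and Trac together and at least 2 of Cd3d, Cd3e, Cd3g, and Trac, with no Cd79a) and 2686 other immune cells (at least 1 Ptprc UMI, the pan-leukocyte marker CD45, outside both gates), of which 1742 were B cells with at least 3 Cd79a UMIs.

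NK cells are innate lymphocytes that kill infected or transformed cells with perforin and granzymes released from cytotoxic granules. They carry no rearranged antigen receptor. Their activity is set by a balance between activating and inhibitory receptors, which in the mouse are largely C-type lectin-like proteins encoded side by side in the NK gene complex, and the activating receptors signal through small adaptor proteins. In the mouse they mature from Cd27-positive to Itgam-positive (CD11b) cells under the T-box factors Eomes and Tbx21.

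Promoters are shown for the genes on which the account turns: Gzma and Prf1, the granule effectors, and Klra4 and Klra8, a pair of Ly49 receptor genes with some of the largest differences from T cells. Each run is 300 bases from RefSeq (build GRCm38.p6), 5' to 3' on the gene's strand, from 250 bases before to 50 bases after the annotated start. The intervals are chr13:113100932-113101231 on the minus strand for Gzma, chr10:61297586-61297885 on the plus strand for Prf1, chr6:130067222-130067521 on the minus strand for Klra4, and chr6:130129849-130130148 on the minus strand for Klra8. Capitals mark matches to a RUNX motif (TGTGGT or its complement ACCACA, so both strands were read), which were found at -50 in Gzma and -130 in Prf1. A T-box motif (TCACAC or GTGTGA, both strands) was not found in these 4 windows, so no base was counted under both motifs.
Gzma: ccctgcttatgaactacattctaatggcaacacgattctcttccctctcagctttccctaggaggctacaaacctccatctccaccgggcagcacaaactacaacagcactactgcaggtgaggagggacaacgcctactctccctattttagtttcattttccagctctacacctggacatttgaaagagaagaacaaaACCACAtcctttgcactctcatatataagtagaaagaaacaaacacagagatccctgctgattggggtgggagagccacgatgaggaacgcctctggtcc
Prf1: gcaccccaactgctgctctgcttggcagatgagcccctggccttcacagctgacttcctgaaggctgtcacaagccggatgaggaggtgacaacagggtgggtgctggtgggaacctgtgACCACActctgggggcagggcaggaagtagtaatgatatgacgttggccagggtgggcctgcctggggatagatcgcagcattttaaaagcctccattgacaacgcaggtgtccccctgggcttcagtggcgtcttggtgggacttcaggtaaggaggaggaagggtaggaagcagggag
Klra4: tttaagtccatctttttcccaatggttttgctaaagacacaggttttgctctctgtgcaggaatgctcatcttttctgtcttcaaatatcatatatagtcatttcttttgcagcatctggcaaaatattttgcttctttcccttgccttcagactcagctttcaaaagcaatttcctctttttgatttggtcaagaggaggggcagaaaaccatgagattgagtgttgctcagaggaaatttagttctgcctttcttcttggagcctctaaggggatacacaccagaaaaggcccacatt
Klra8: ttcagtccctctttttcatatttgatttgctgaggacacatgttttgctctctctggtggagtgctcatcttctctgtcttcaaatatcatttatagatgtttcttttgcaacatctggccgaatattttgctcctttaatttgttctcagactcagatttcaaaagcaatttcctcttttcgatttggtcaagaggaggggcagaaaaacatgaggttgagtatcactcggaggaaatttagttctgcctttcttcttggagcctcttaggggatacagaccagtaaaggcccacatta

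The Klra4 and Klra8 windows matched at 259 of 301 aligned columns (86.0% identity). These Ly49 genes are related paralogs, and how the read assignment divided UMIs between them was not tested. Among all 27025 RefSeq promoters of this length, 14.4% held the T-box letters and 16.9% the RUNX letters. Promoters were matched for 137 of the 177 genes called higher in NK cells than in T cells, and 13.9% of them held the T-box letters and 17.5% the RUNX letters. For 134 matched genes of the 192 called lower the shares were 12.7% and 13.4%. For the 4546 matched genes of all those tested the shares were 10.1% and 11.8%. A match describes letters in a window and not binding.

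NK cells numbered 20, 41, and 16 in mice 2, 3, and 4. Their share of kept cells was 0.838% in mouse 2 (exact 95% interval, 0.513 to 1.29), 1.58% in mouse 3 (1.13 to 2.13), and 0.603% in mouse 4 (0.345 to 0.977), or 1.01% ± 0.508 (SD, n = 3). The interval of mouse 3 did not overlap that of mouse 4. Mouse 3 was also the library with the most immune cells, 54.5% of kept cells against 28.6% in mouse 2 and 33.6% in mouse 4. Of the immune cells, NK cells made up 2.93%, 2.89%, and 1.79%, or 2.54% ± 0.646 (SD, n = 3), with overlapping intervals (1.80 to 4.49, 2.08 to 3.90, and 1.03 to 2.90). There were 0.333, 0.390, and 0.25 NK cells per T cell. These intervals cover counting error only, and the shares describe dissociated, gated cells, not the lung in place.

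**Figure D1:**
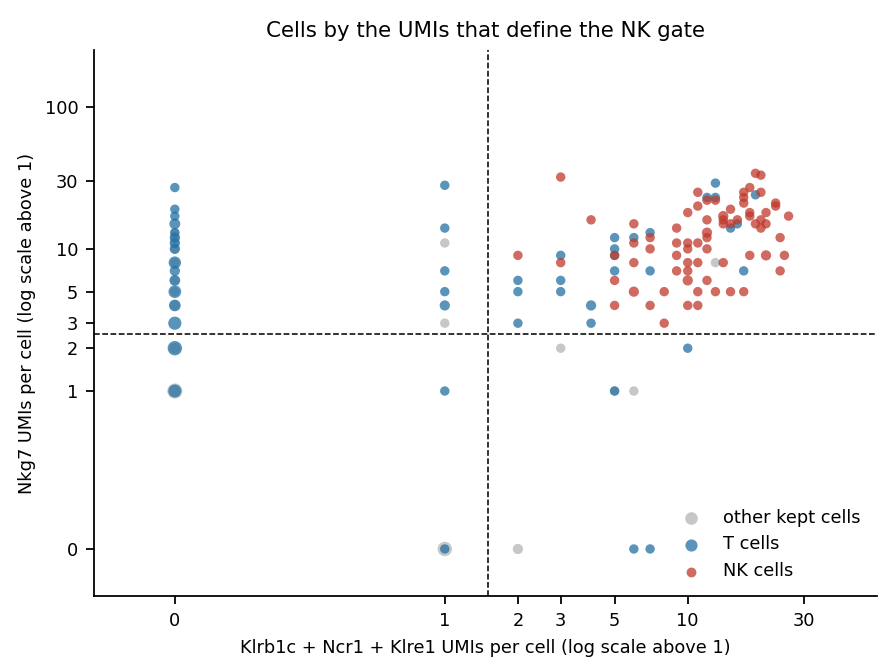
Each point is a set of kept cells with the same pair of UMI counts, with Nkg7 on the y axis and Klrb1c, Ncr1, and Klre1 together on the x axis (both linear below 1 UMI and logarithmic above), sized by the number of cells and colored by cell group. Most of the 77 NK cells lie well inside the gate, at a median of 12 Nkg7 UMIs and 12 receptor UMIs, and T cells reach into the same area because the gate also required no Cd3e or Trac.

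Most members lay far from the limits of the gate. Nkg7, a granule membrane protein of cytotoxic lymphocytes, had 3 to 34 UMIs per member (median 12). The 3 receptor genes together had 2 to 26 UMIs (median 12), with medians of 3 for Klrb1c (NK1.1), 3 for Ncr1 (NKp46), and 5 for Klre1. These genes chose the cells, so their levels are a description: Nkg7 stood at 2004, 1662, and 2315 CPM (the counts-per-million scale, on which the summed UMIs of a cell group have the same total in each mouse) in the NK cells of mice 2, 3, and 4, and Ncr1 at 510, 544, and 779. Just inside the limits, 1 member had 3 Nkg7 UMIs and 1 had 2 receptor UMIs. Just outside, 1 cell had 2 Nkg7 UMIs, 2 cells had 1, and 1 cell had none, each with at least 2 receptor UMIs, and 1 cell with enough Nkg7 had a single receptor UMI. Another 6 cells with enough Nkg7 had no receptor UMI, and none of them had a Gzma or Eomes UMI. A further 23 cells met the Nkg7 and receptor conditions but had a Cd3e or Trac UMI, and 1 had a Cd79a UMI. All 23 also had a Cd3d UMI, so they were counted among the 229 T cells.

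The label of the cells was checked against markers that took no part in the gate. Klrd1 (CD94) had a UMI in 98.7% of NK cells, Gzma in 97.4%, Klrk1 (NKG2D) in 96.1%, Eomes in 80.5%, and Prf1 in 40.3%, at a median depth of 5726 UMIs per cell. In B cells, which should lack these genes and had a median of 4091 UMIs, the shares were 0.631%, 0.115%, 0.172%, 0%, and 0.0574%, and 0 of 1742, taken as 3 counts of the total, allows a share of cells with a UMI of up to 0.172%. Klrd1 did not separate NK cells from the T cells most like them. It had a UMI in 84.4% of T cells with at least 3 Nkg7 UMIs and in 95.7% of the 23 of these that also met the receptor condition. Gzma had one in 29.9% and 65.2% and Eomes in 35.1% and 43.5%. Cd4, Cd8b1, Cd5, Cd6, and Foxp3, which mark T cells, had no UMI in any NK cell. Other T cell genes were present: Trbc1 had a UMI in 64.9% of NK cells, Trdc in 49.4%, Trbc2 in 48.1%, Cd3g in 44.2%, and Cd3d in 27.3%.

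Some members carried RNA of other cells. In 4 NK cells (1 in mouse 2, 3 in mouse 3, 0 in mouse 4) and 12 T cells, over 1% of UMIs came from epithelial, stromal, and endothelial lists. Such RNA was 1.67% to 12.2% of the UMIs of these 4 NK cells and at most 0.344% of any other NK cell, and their median depth was 14567.5 against 5623 UMIs. They held 89.5% of the epithelial, 96.4% of the stromal, and 88.5% of the endothelial list UMIs found in NK cells. Sftpc, the surfactant protein of alveolar type II cells and the most abundant gene of its list, stood at 319, 6155, and 452 CPM in NK cells. B cell, neutrophil, and macrophage genes were scarce: their lists summed to 203, 198, and 294, to 11.6, 21.6, and 0, and to 46.3, 353, and 11.3 CPM, led by Ighm, S100a8, and Lyz2, with C1qa, C1qb, and Retnlg at 0. In mouse 3 a single cell held 88 of the 94 Lyz2 UMIs. The doublet caller marked 3 NK cells, 1 per mouse, of which 2 were among these 4. No cell barcode of an NK cell was shared between libraries. The number of genes called in each comparison is therefore given both with and without cells that carried such RNA, and list counts without them for some lists only. Against T cells all 16 were left out. Against other immune cells and in the split by Itgam, only the 4 NK cells were.

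Cytotoxic and receptor genes were among those that differed between NK cells and lung T cells. UMIs were summed per mouse and cell group, and the sums of the 3 mice were compared with edgeR's quasi-likelihood test, with p-values adjusted by the Benjamini-Hochberg method over 5823 genes and a threshold of 0.05. In NK cells 177 genes (3.04% of those tested) were higher and 192 (3.3%) were lower, and each of these calls had the same direction in all 3 mice with no overlap between the groups. Of all 5823 genes, 1399 had no overlap. The median log2 fold change over all 5823 genes was -0.02. With library size alone in place of TMM scaling factors, 201 genes were higher and 154 lower, so the share of higher calls went from 48.0% to 56.6%. Without the NK and T cells that carried epithelial, stromal, or endothelial RNA, 287 genes were higher and 289 lower, and these included 175 and 172 of the genes above. Among the lists described next, that setting had 8 granule, 10 activating receptor, 5 inhibitory receptor, and 10 adaptor genes higher and 20 T cell genes lower. With 1 mouse left out in turn, 75 to 99 genes were higher and 76 to 94 lower, the fewest higher ones without mouse 3 (75), then mouse 4 (87) and mouse 2 (99). The genes of both gates were not tested, and sums of 16 to 41 cells do not give the depth to see small differences in genes of few UMIs. The low-count filter kept a gene when either group had enough UMIs. A gene near 0 in one group could therefore be called only toward the other, and counts by list describe the genes tested.

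**Figure D2:**
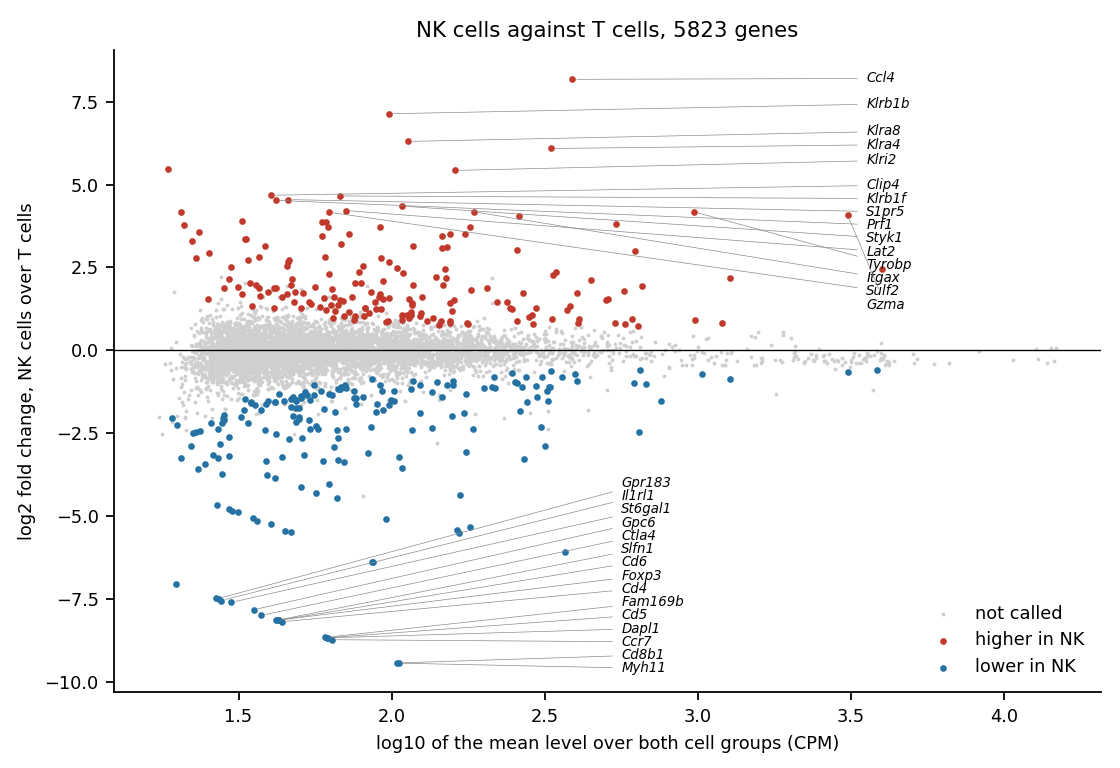
Each point is 1 of 5823 genes, with log10 of its mean level (CPM) over NK and T cells on the x axis and its fitted log2 fold change, NK cells over T cells, on the y axis, colored by whether it was called higher, lower, or neither. Among called genes with at least 50 CPM in the higher group, Ccl4, Klrb1b, and Klra8 had the largest fitted folds toward NK cells, and Myh11, Cd8b1, and Ccr7 toward T cells.

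Several cytotoxic granule genes were higher in NK cells than in T cells, and Gzma was among the 10 most abundant transcripts of NK cells outside mitochondrial and ribosomal protein genes. Gzma, which encodes the serine protease granzyme A (chr13:113093825-113100981, GRCm38), stood at 6470, 5968, and 5104 CPM in the NK cells of mice 2, 3, and 4 and at 181, 375, and 428 in T cells. The lowest NK value was far above the highest T value. The log2 fold change was 4.07 (SE 0.28, adjusted p = 4.4e-05). T cells were not gated on Nkg7, and the 77 of 229 that had at least 3 Nkg7 UMIs, as all NK cells had, stood at 341, 1146, and 928 CPM for Gzma, still below each NK value. NK cells, 1.01% of cells per mouse, held 82.2% of the 3923 Gzma UMIs of all kept cells, and T cells held 16.5%. Within NK cells Gzma varied from 0 to 127 UMIs per cell (median 38).

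Prf1, which encodes the pore-forming protein perforin (chr10:61297833-61304680), stood at 57.9, 105, and 79.0 CPM in NK cells against 2.01, 3.37, and 3.84 in T cells, and the groups did not overlap. Its log2 fold change was 4.52 (SE 0.45, adjusted p = 0.000171), and NK cells held 85.2% of its 54 UMIs in kept cells. Gzmb, which encodes granzyme B, was different. It stood at 122, 191, and 102 CPM in NK cells and at 46.2, 82.0, and 138 in T cells, so mouse 4 had the lower value in NK cells, and the difference did not pass the test (log2 fold change 0.63, adjusted p = 0.459). Gzmc had no UMI in NK cells. Per UMI captured at the 3' end, Gzma was thus far more abundant than Gzmb in every mouse.

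Of 12 granule genes tested, 7 were higher in NK cells than in T cells, none was lower, and 5 were not called, with a median log2 fold change of 1.43 against -0.02 for all genes. Beside Gzma and Prf1 these were Serpinb9 (3.12) and Serpinb6b (2.20), serpins that inhibit granule proteases, the cathepsins Ctsw (1.32) and Ctsd (1.53), and Fasl (3.13), the death receptor ligand. Ctsw, a cathepsin of cytotoxic lymphocytes, stood at 504, 577, and 587 CPM in NK cells and 243, 163, and 219 in T cells. Srgn, the proteoglycan serglycin that packs granule proteases, stood at 342, 270, and 666 in NK cells and 391, 437, and 426 in T cells and was not called.

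**Figure D3:**
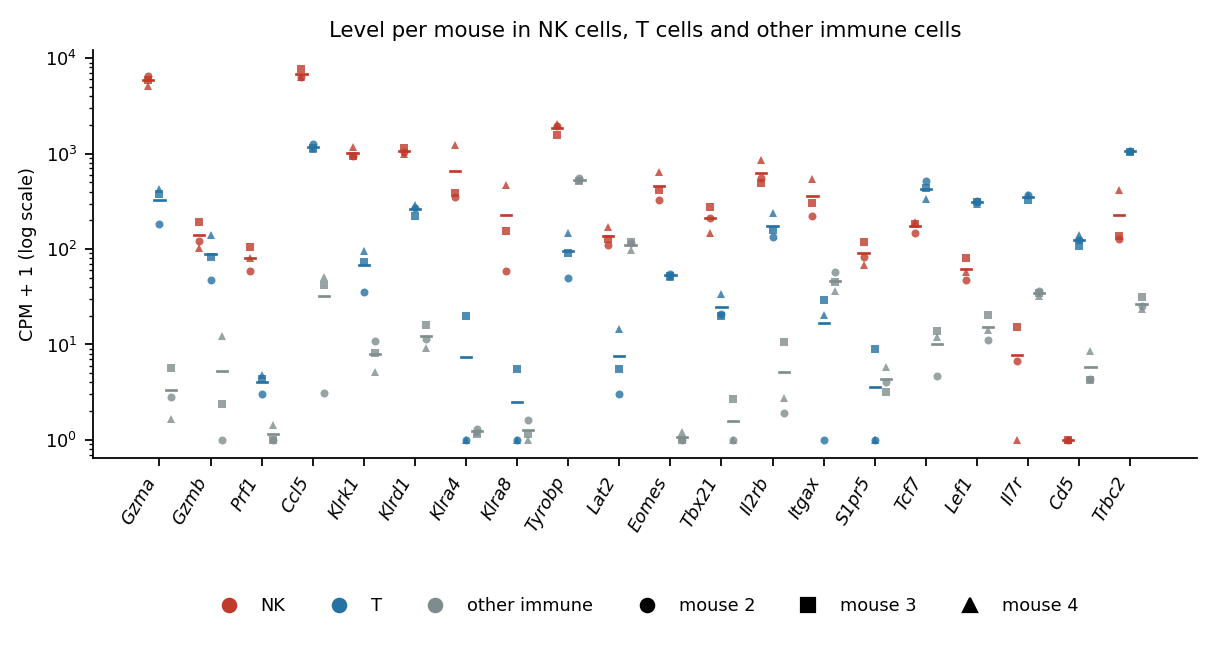
Levels of selected genes (CPM + 1, log scale) in NK cells, T cells, and other immune cells, with 1 symbol per mouse and a line at the mean of the mice. Gzma and Ccl5 stand above all other genes shown in the NK cells of each mouse.

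Most tested receptors of the NK gene complex were higher in NK cells. The deposited matrices held 26 genes whose symbols begin with Klr, all on chromosome 6, and 23 of them had a UMI in NK cells. Klrb1c and Klre1 were part of the gate. Of 17 tested against T cells, 13 were higher, none was lower, and Klrg1, Klra1, Klra5, and Klra6 were not called. Some of these, such as Klrb1b, Klra4, and Klra8, were scarce in T cells and passed the low-count filter through NK cells. For such genes only a higher call was possible, so the count describes the genes tested.

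Klrk1, the activating receptor NKG2D (chr6:129610323-129623864), stood at 944, 945, and 1163 CPM in NK cells and 34.1, 71.9, and 94.1 in T cells. No T value came near an NK value, and the log2 fold change was 3.82 (SE 0.29, adjusted p = 4.83e-05). Klrd1 (CD94) pairs with NKG2 chains other than NKG2D, including the inhibitory receptor chain NKG2A encoded by Klrc1. Klrd1 stood at 1031, 1139, and 994 against 271, 221, and 288 (log2 fold change 1.93, SE 0.17, adjusted p = 9.52e-05). T cells with at least 3 Nkg7 UMIs stood at 562, 679, and 544 for Klrd1. The 23 of these that also met the receptor condition stood at 1044, 979, and 876, in mouse 2 above the NK value. Klrc1 stood at 330, 364, and 271 in NK cells against 20.1, 41.6, and 13.4 in all T cells (3.51, SE 0.31, adjusted p = 9.52e-05). Both activating and inhibitory partners of CD94 were therefore higher in NK cells, with Klrc2 (NKG2C) at a log2 fold change of 4.04.

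Klrb1b and Klrb1f belong to the NKR-P1 receptors, as does the gate gene Klrb1c. Klrb1b, an inhibitory member, was nearly absent from T cells, at 0, 0, and 3.84 CPM against 249, 202, and 136 in NK cells (log2 fold change 7.13, SE 0.56, adjusted p = 4.83e-05). Klrb1f had a log2 fold change of 4.65, Klri2 of 5.42, and Styk1, which encodes a putative receptor kinase, of 4.35. The annotation of Klrb1b overlaps that of another gene on the same strand (Gm44511).

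Ly49 receptors, encoded by the Klra genes, were found in most NK cells, with single genes in at most 51.9% of them (Klra7). The counts here take 9 of the 11 Klra genes in the matrices and leave out Klra2, with 1 UMI in NK cells, and Klra17, with none. A UMI of these 9 was found in 61 of 77 NK cells (14 of 20, 34 of 41, and 13 of 16 in mice 2, 3, and 4) and in 47 of 229 T cells. Counting distinct genes of these per NK cell, 16 cells had none, 22 had 1, 19 had 2, 15 had 3, 4 had 4, and 1 had 5, though shallow sampling lowers such numbers. Klra4 (Ly49D, activating) stood at 353, 382, and 1231 CPM in NK cells, with mouse 4 the highest, and at 0, 19.1, and 0 in T cells (log2 fold change 6.09, SE 0.77, adjusted p = 0.000849). It had a UMI in 27.3% of NK cells. Klra8 (Ly49H, activating) stood at 57.9, 155, and 463 against 0, 4.49, and 0 (6.30, SE 0.91, adjusted p = 0.00187), again highest in mouse 4, and in mouse 2 a single cell held 9 of its 10 UMIs. The inhibitory members Klra3, Klra7, and Klra9 were also higher than in T cells (2.55, 1.25, and 3.21). With the mouse as a block the adjusted p of Klra3 was 0.0515. Because these genes are related copies, and how reads were divided between them was not tested, their single values are uncertain. The sum of the 9 was 1135, 1215, and 2292 CPM in NK cells and 359, 160, and 438 in T cells.

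As functional lists, 8 of 12 activating receptor genes tested were higher in NK cells than in T cells and 1 was lower, with a median log2 fold change of 3.67. That list held the inhibitory gene Klrb1b, and without it 7 of 11 were higher and 1 lower, with a median of 3.51. Of 10 genes tested from the inhibitory receptor list, which did not hold Klrb1b, 5 were higher and none lower, with a median of 1.22. The lower activating gene was Slamf6, a SLAM family receptor shared by B and T cells, at 34.8, 28.8, and 67.8 CPM in NK cells against 335, 297, and 284 in T cells (log2 fold change -3.08, SE 0.28, adjusted p = 9.52e-05). Its relatives Cd244 (2B4) and Slamf7 were higher (3.51 and 2.37). Fcgr3, the Fc receptor of antibody-dependent killing, stood at 52.1, 75.7, and 113 in NK cells and 14.0, 6.74, and 42.2 in T cells and did not pass the test (log2 fold change 1.86, adjusted p = 0.113), whereas with the mouse as a block its adjusted p was 0.0451.

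Signaling adaptors differed from T cells in both directions. Tyrobp (DAP12, chr7:30413760-30417585), which couples activating receptors to kinases, stood at 1946, 1550, and 2033 CPM in NK cells and 48.2, 89.9, and 148 in T cells. The groups lay far apart in all 3 mice, with a log2 fold change of 4.18 (SE 0.33, adjusted p = 4.83e-05). Fcer1g, the FcR gamma chain that couples Ncr1 and Fc receptors, stood at 1118, 1024, and 1220 against 86.3, 112, and 196 (3.00, SE 0.27, adjusted p = 0.000101). Syk, the kinase recruited by both adaptors, stood at 110, 126, and 113 against 4.01, 11.2, and 7.68 (3.71).

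The pair Lat and Lat2 moved in opposite directions. Lat, the scaffold of T cell receptor signaling, stood at 46.3, 36.1, and 33.9 CPM in NK cells against 197, 197, and 188 in T cells (log2 fold change -2.39, SE 0.23, adjusted p = 0.000124). Lat2, a related scaffold of B and myeloid cells, stood at 110, 126, and 169 in NK cells against 2.01, 4.49, and 13.4 in T cells (4.21, SE 0.45, adjusted p = 0.000245). Neither gene overlapped between the groups. In other immune cells Lat2 stood at 114, 119, and 97.1, and its log2 fold change in NK cells over them was 0.04 (adjusted p = 0.943). The gene overlaps Rfc2 on the other strand. Cd247, the zeta chain shared by the T cell receptor and NK receptors, was lower than in T cells (-0.94, adjusted p = 0.0227), and the T cell kinases Lck and Zap70 were not called. Of 15 adaptor genes tested, 8 were higher and 2 lower, with a median of 0.75. With the mouse as a block 5 were higher, and Fyn, a Src family kinase, was no longer called (adjusted p = 0.0587).

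The T-box factors of the NK lineage were higher than in T cells, and several T cell factors were lower. Eomes, a T-box factor (chr9:118478212-118486132), stood at 324, 415, and 644 CPM in NK cells and 54.2, 51.7, and 49.9 in T cells, and every NK value exceeded every T value (log2 fold change 3.01, SE 0.26, adjusted p = 8.09e-05). An Eomes UMI was seen in 85%, 75.6%, and 87.5% of NK cells, or 82.7% ± 6.27 (SD, n = 3), and in 14.1% ± 3.50 of T cells. An exact 2-sided permutation test over the mice gave p = 0.1, the smallest that 3 against 3 allows. When each cell was thinned to 1000 UMIs, the shares were 36.9% and 3.96%. Tbx21 (T-bet) stood at 209, 278, and 147 against 20.1, 19.1, and 32.6 (3.13, SE 0.31, adjusted p = 0.00016). Only 4 of the 77 NK cells had neither an Eomes nor a Tbx21 UMI.

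Irf8 was 382, 389, and 237 CPM in NK cells and 16.1, 35.9, and 17.3 in T cells (log2 fold change 3.72, SE 0.30, adjusted p = 5.56e-05). This interferon regulatory factor is best known from myeloid and B cells, and other immune cells held a like level (424, 356, and 301). Id2, an inhibitor of E proteins required for innate lymphocytes, was also higher than in T cells (1.80). Bcl11b, a factor of T cell commitment, stood at 5.79, 25.2, and 11.3 in NK cells against 323, 361, and 278 in T cells (-4.36, SE 0.33, adjusted p = 4.83e-05). Its NK values lay far below all T values. Lef1 and Tcf7, the TCF factors of T cells and of immature NK cells, were lower by less, with log2 fold changes of -2.37 and -1.41. In all, 5 of 20 factors tested were higher and 8 lower (7 with the mouse as a block), with a median of -0.25. The annotation of Irf8 overlaps Gm20388 on the same strand.

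Like Gzma, the chemokine Ccl5 was among the 10 most abundant of those transcripts, whereas Ccl4 came from a few cells. Ccl5 (RANTES, chr11:83525778-83530518) stood at 6291, 7771, and 6335 CPM in NK cells and 1274, 1151, and 1108 in T cells (log2 fold change 2.44, SE 0.15, adjusted p = 4.26e-05). The 3 NK values were close to one another and well above all T values, and above the 2677, 3497, and 1948 CPM of the T cells with at least 3 Nkg7 UMIs. The 23 of these T cells that also met the receptor condition of the NK gate stood at 6880, 4928, and 3185, and in mouse 2 this was above the NK value. Ccl4 (MIP-1 beta) stood at 57.9, 389, and 1886 in NK cells against 0, 3.37, and 1.92 (8.17, SE 1.30, adjusted p = 0.00344). In mouse 4 a single cell held 164 of its 167 UMIs, in mouse 3 another held 83 of 108, and in mouse 2 the largest holder had 4 of 10. Without those cells the levels were 36.3, 91.3, and 36.4, still above T cells in each mouse. Xcl1, which attracts cross-presenting dendritic cells, was likewise uneven at 63.7, 32.5, and 429, with 33 of 38 UMIs of mouse 4 in 1 cell. Of 7 cytokine and chemokine genes tested, 4 were higher, and Ltb, which encodes lymphotoxin beta, was lower (-1.53). Ifng stood at 23.2, 32.5, and 22.6 CPM and was too low to test against T cells.

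Among cytokine receptor genes, the chain shared by the IL-2 and IL-15 receptors and both IL-18 receptor chains were higher than in T cells, and the alpha chain of the IL-2 receptor and the receptor genes for IL-7 and IL-6 were lower. Il2rb, the shared beta chain of the IL-2 and IL-15 receptors on which NK cells depend, stood at 550, 490, and 858 CPM in NK cells and 132, 157, and 236 in T cells (log2 fold change 1.73, SE 0.27, adjusted p = 0.0031). Il2ra, the alpha chain (CD25), had 1 UMI in all NK cells and stood at 30.1, 128, and 111 CPM in T cells (-5.48, SE 1.07, adjusted p = 0.0123). Both chains of the IL-18 receptor were higher. Il18rap stood at 434, 718, and 587 against 92.3, 96.6, and 131 (2.36, SE 0.23, adjusted p = 0.00016), and Il18r1 had a log2 fold change of 2.26. Il7r, the IL-7 receptor of T cells and most other innate lymphoid cells, stood at 5.79, 14.4, and 0 against 367, 326, and 371 (-5.32, SE 0.36, adjusted p = 4.4e-05), with a UMI in 5.19% of NK cells and 66.4% of T cells. Il6ra had 1 UMI in all NK cells and 163 to 185 CPM in T cells (-6.39). Of 16 receptor genes tested, 5 were higher and 5 lower. Under the block by mouse 4 were higher.

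Trafficking genes moved in both directions. Ccr2, a receptor for inflammatory chemokines, was higher in NK cells (log2 fold change 2.13), and so was S1pr5, the sphingosine-1-phosphate receptor used by NK cells to leave marrow and lymph nodes. S1pr5 stood at 81.1, 119, and 67.8 CPM in NK cells and 0, 7.86, and 0 in T cells (4.55, SE 0.63, adjusted p = 0.00149). Ccr7, the receptor for lymph node homing, had no UMI in NK cells and stood at 130, 125, and 129 in T cells, at least 22.8-fold higher against 3 counts over all NK cells. Itgax (CD11c) stood at 220, 306, and 542 in NK cells against 0, 28.1, and 19.2 (4.17, SE 0.55, adjusted p = 0.00109), and Itgam had a log2 fold change of 3.52. Of 20 genes tested, 10 were higher and 3 lower (2 with the mouse as a block), with a median of 0.64.

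**Figure D4:**
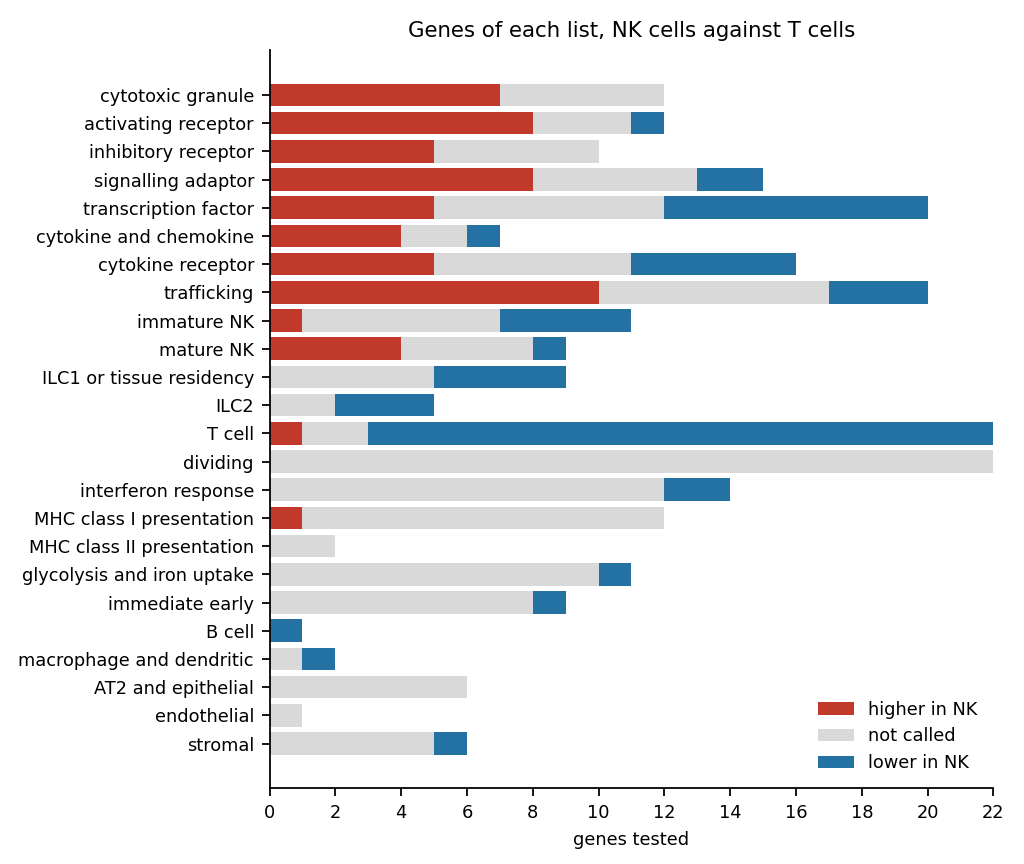
For each gene list, the bar gives the number of genes tested in NK cells against T cells (x axis), divided into genes called higher in NK cells, not called, and called lower. The activating receptor list, which includes the inhibitory gene Klrb1b, has 8 of 12 genes higher and the T cell list 19 of 22 lower.

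Most T cell genes tested were lower in NK cells. Of 22, 19 were lower, 1 was higher, and 2 were not called, with a median log2 fold change of -3.41. The genes not called were Cd2, an adhesion receptor of T and NK cells (0.26, adjusted p = 0.571), and Tcrg-C1, a constant region of the gamma chain (-2.40, adjusted p = 0.0639). Cd8b1, Cd5, Cd4, Foxp3, Ctla4, and Cd6 had no UMI in NK cells and were at least 34.9-, 21.5-, 16.0-, 16.0-, 14.6-, and 14.9-fold higher in T cells, taken against 3 counts over all NK cells. These genes, like Ccr7, passed the low-count filter through T cells alone, so only a lower call was possible for them. The count and the median therefore describe the genes tested. The higher gene was Trdc, the constant region of the T cell receptor delta chain, at 174, 148, and 124 CPM in NK cells against 32.1, 56.2, and 53.8 in T cells (1.56, SE 0.26, adjusted p = 0.00479). Trbc1 and Trbc2, constant regions of the beta chain, were lower than in T cells but not absent. Trbc1 stood at 492, 321, and 497 in NK cells against 1023, 699, and 685 (-0.998, adjusted p = 0.0319), and Trbc2 at 127, 137, and 418 against 1055, 1052, and 1067 (-2.46, adjusted p = 0.00197). Cd3g and Cd3d, which took part in the T cell gate, had UMIs in 0.631% and 0.574% of B cells, far fewer than in NK cells. Whether constant region transcripts come from rearranged genes cannot be read from 3' counts, and the part of T cells missed by the gate in these values was not tested. When Cd3d, Cd3g, Trbc2, and Cd79b had to be at 0 as well, 5, 13, and 2 NK cells were left, with 77 genes higher and 154 lower than in T cells.

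Some genes of other innate lymphoid cells were lower in NK cells than in T cells, and none tested was higher when all cells of both groups were used. Group 1 innate lymphoid cells that reside in tissue (ILC1) carry Itga1, Cxcr6, and Il7r and lack Eomes. Itga1 had a UMI in 5 of 77 NK cells, Cxcr6 in 1, and Il7r in 4, and 55 of 77 had an Eomes UMI and none of these 3. Of 9 ILC1 or residency genes tested, 4 were lower than in T cells (Cxcr6, Il7r, Gpr183, and Inpp4b) and 5 were not called. Without the cells that carried epithelial, stromal, or endothelial RNA, 6 were tested, of which 1 was higher and 4 were lower. Of 5 ILC2 genes, 3 were lower (2 with the mouse as a block) and 2 were not called, the lower ones including Il1rl1, the IL-33 receptor, which had no UMI in NK cells. Areg, Il13, and Il5 also had none. Genes at or near 0 in NK cells, such as Il1rl1, Gpr183, Cxcr6, and Il7r, passed the low-count filter through T cells. Only a lower call was possible for them, so these counts describe the genes tested. Gata3, the ILC2 and T helper 2 factor, stood at 127, 130, and 237 CPM in NK cells against 140, 202, and 161 in T cells and was not called (-0.22, adjusted p = 0.758). Against other immune cells 2 of 8 ILC2 genes tested were higher, Gata3 (log2 fold change 2.00, adjusted p = 0.0011) and Klrg1 (3.30), and 3 were lower (Il1rl1, Kit, and Ramp1), with a median log2 fold change of -1.91. The ILC2 list summed to 243, 281, and 384 CPM in NK cells and 336, 268, and 297 in those cells.

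In the other gene groups few genes were called. Of 22 cell division genes tested, none was called by edgeR or DESeq2, with 3 and 1 at an unadjusted p under 0.05 and a median log2 fold change of -0.06. Mki67 stood at 330, 123, and 11.3 CPM in NK cells, so that mouse 4 was far below the others, and at 150, 236, and 190 in T cells (log2 fold change -0.30, adjusted p = 0.863). Single cells held 29 of 57, 26 of 34, and 1 of 1 of its UMIs in NK cells. At least 2 UMIs of Mki67 and Top2a together were seen in 15%, 12.2%, and 6.25% of NK cells, or 11.1%, and in 13.0% of T cells (exact permutation p = 0.6). Without the cells that carried epithelial, stromal, or endothelial RNA 3 division genes were lower than in T cells. Of 14 interferon response genes, 2 were lower (1 with the mouse as a block), led by Ifi27l2a at 0, 7.21, and 22.6 CPM against 321, 324, and 307 (-5.44, SE 0.42, adjusted p = 4.83e-05). Of 12 MHC class I presentation genes 1 was higher, of 11 glycolysis and iron uptake genes 1 was lower (Gapdh, adjusted p = 0.0451, and 0.0776 with the mouse as a block), and of 9 immediate early genes 1 was lower, which was not called with the mouse as a block. None of 6 epithelial, 2 MHC class II, and 1 endothelial genes tested was called by edgeR or DESeq2, and 1 epithelial gene had an unadjusted p under 0.05 by edgeR. The 1 B cell gene tested, Ighm, was lower (-1.22), and of 2 macrophage and dendritic genes 1 was lower (Ccr7).

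A few of the lower calls rested on T cells that carried other RNA. Myh11, a smooth muscle myosin, and Gpc6, a glypican of stromal cells, had no UMI in NK cells and were called lower (adjusted p = 0.0411 and 0.036). In T cells 335 of 337 Myh11 UMIs and 117 of 119 Gpc6 UMIs lay in the 12 cells with over 1% of such RNA, as did 1147 of 1165 UMIs of Acta2, smooth muscle actin. Without those cells none of these 3 genes had enough UMIs to be tested.

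Against other immune cells, most of them B cells, more genes were called, and some T cell genes were higher in NK cells. Of 10522 genes tested, 629 (5.98%) were higher in NK cells and 1251 (11.9%) lower, with a median over all genes of -0.11. With library size alone in place of TMM factors the counts were 946 and 1012, so the share of higher calls went from 33.5% to 48.3% and the median of all genes to 0.08. Without the 4 NK cells that carried other RNA they were 752 and 1780. The other immune cells were left as they were in that setting, with the epithelial list at 16858, 10960, and 33513 CPM, so it removed such RNA from one side alone. Leaving out mouse 3 gave 266 higher and 543 lower genes, and leaving out mouse 2 gave 733 lower. Gzma stood at 1.83, 4.63, and 0.655 CPM in other immune cells (log2 fold change 10.93, SE 0.47, adjusted p = 1.18e-06), and Eomes at 0, 0, and 0.218 (11.65, SE 0.44, adjusted p = 7.25e-07). The Gzma value of mouse 3 includes the cell kept out of the NK gate by Cd79a alone. That cell had 28915 UMIs and stood at 1038 CPM for Gzma.

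Of 13 T cell genes tested here, 9 were higher in NK cells than in other immune cells and 2 lower. Cd4, Cd5, Cd6, Cd8a, Cd8b1, Ctla4, and Foxp3, at or near 0 in NK cells, were not tested here. Cd28, at 2.44, 6.17, and 2.18 CPM in other immune cells and 81.1, 79.3, and 90.3 in NK cells, was tested. The count thus describes the genes that passed the low-count filter, some through NK cells, and not the whole list. Trbc1, at 11.9, 11.9, and 21.6 CPM in other immune cells, had a log2 fold change of 4.61 (SE 0.28), and Lck, a kinase of T and NK cells, of 4.69. Trbc1 in NK cells thus lay between T cells and other immune cells, and Lck stood at 353, 321, and 384 CPM in NK cells and 375, 334, and 349 in T cells. Of 20 interferon response genes 3 were higher and 5 lower, and of 14 immediate early genes none was higher and 12 were lower, with Fos at 11.6, 0, and 0 against 343, 296, and 286. All 7 MHC class II genes tested were lower, Cd74 standing at 5.79, 137, and 22.6 against 8010, 6846, and 5681 (-6.82). Ciita of that list, and Fosb, Hspa1b, and Atf3 of the immediate early list, had no UMI in NK cells. Such genes passed the low-count filter through the other immune cells, so only a lower call was possible for them. Tyrobp and Fcer1g, which myeloid cells share, were higher in NK cells than in the pooled other immune cells (1.58 and 1.75). Most of these were B cells, and a comparison with myeloid cells alone was not tested. Syk was lower in NK cells (-1.97) than in this pool, whose B cells use it for the B cell receptor. Of 24 division genes 4 were higher, among them Top2a, at 290, 188, and 22.6 CPM in NK cells against 55.6, 54.1, and 64.6, so that mouse 4 was lower. Single cells held 35 of 50, 35 of 52, and 2 of 2 of its UMIs in NK cells of mice 2, 3, and 4.

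Within NK cells, the genes S100a6, Ccl5, and Gzma were higher in cells with an Itgam UMI. Itgam, the CD11b chain that marks mature NK cells, had a UMI in 34 of 77 NK cells (8, 19, and 7 in mice 2, 3, and 4), and Cd27, which marks less mature cells, alone in 26, with both in 15, Itgam alone in 19, and neither in 17. Median depth was 5710.5 UMIs with an Itgam UMI and 5996 without. Of 1464 genes tested, 3 (0.205%) were higher with Itgam and none lower by edgeR at the adjusted threshold, with 148 at an unadjusted p under 0.05, and DESeq2 called 6 higher and 1 lower. The annotation of Itgam overlaps Gm49368 on the same strand.

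The 3 genes were S100a6, Ccl5, and Gzma. S100a6, a calcium-binding protein, stood at 893, 771, and 433 CPM with Itgam and 221, 209, and 284 without (log2 fold change 1.64, SE 0.28, adjusted p = 0.0119). Ccl5 stood at 7878, 11265, and 9046 against 5636, 5129, and 4177 (0.92, SE 0.15, adjusted p = 0.0119). Gzma stood at 8811, 8074, and 6651 against 5505, 4375, and 3873 (0.77, SE 0.14, adjusted p = 0.0263). In each of these 3 genes every value with Itgam exceeded every value without it, and 14.4% of all genes tested in this split had no overlap in one direction or the other. S100a6 nevertheless stood lower in NK cells as a whole than in T cells (-1.53, SE 0.24, adjusted p = 0.00276).

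The set of genes called in this split depended on the cells and the fit. With the mouse as a block, 17 genes were higher and 15 lower. Without the 4 cells that carried other RNA, 6 were higher (S100a6, Ly6c2, Itga4, Tyrobp, Ccl5, and Gzma) and 6 lower (Ptma, Cct3, Npm1, Eif4a1, Tuba1b, and Hsp90ab1). Without mouse 3 no gene was called, and without mouse 4 there were 28. Without the 3 marked doublets S100a6 alone was called.

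By list, summed levels with and without Itgam were compared as a description. The granule list stood at 12185, 11248, and 9862 CPM with Itgam and 7804, 6990, and 7179 without. This separation rested on Gzma, called above: the other 16 genes stood at 3374, 3174, and 3211 with Itgam and 2299, 2615, and 3305 without, so the groups overlapped and mouse 4 was lower with Itgam. The mature list without Itgam itself stood at 2183, 3384, and 1351 against 1252, 1165, and 953, without overlap. The immature list stood at 2223, 1549, and 2981 against 2364, 2469, and 4461, lower with Itgam in each mouse though the groups overlapped. The division list stood at 1588, 1072, and 739 against 6037, 3723, and 913, lower with Itgam in each mouse, and here too the groups overlapped. These list sums keep the cells that carried other RNA. In mouse 2 a single such cell held 30171 of the 122246 UMIs without Itgam. Gzmb and Prf1 belong to both the granule and the mature list. In all NK cells against T cells, 4 of 9 mature list genes tested were higher and 1 lower. Of 11 immature list genes 1 was higher and 4 were lower.

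**Figure D5:**
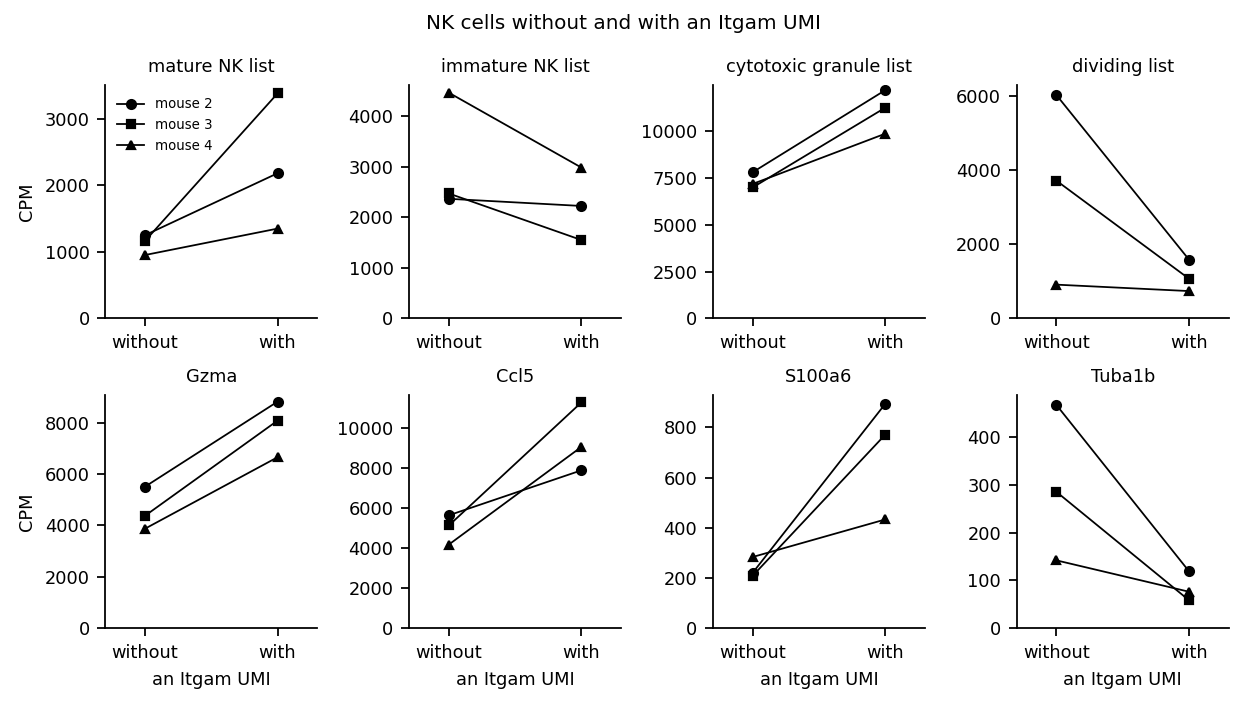
Summed or single gene levels (CPM, y axis from 0) of NK cells without and with an Itgam UMI, with 1 line per mouse. Tuba1b is shown as 1 of the genes called lower without the 4 NK cells that carried other RNA. S100a6, Ccl5, and Gzma are higher with Itgam in all 3 mice, and the dividing list is lower in each.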

How the data were processed

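The authors processed each 10x 3' v3 library with Cell Ranger 3.0.2 (build mm10, per the labels) and deposited the raw UMI count of every gene in every cell; the annotation release is not given in the sources used here. The series text counts 5677 cells; the deposited matrices held 3034, 3135, and 3475. No authors' cell annotation was used.

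Members and gene lists were chosen with earlier results of these data known. UMIs were summed per mouse and cell group and tested in edgeR 4.0.16 (R 4.3.3; filterByExpr, TMM, quasi-likelihood, Benjamini-Hochberg, threshold 0.05), with gate genes left out of the tests (Nkg7, Klrb1c, Ncr1, Klre1, Cd3d, Cd3e, Cd3g, Trac, Cd79a, and, where they defined a group, Ptprc or Itgam). Levels are CPM of the sum. DESeq2 1.42.0 was an alternative. The fits were tested on simulated data. Python 3.11.15 was used for gating, shares with exact binomial intervals, and figures (numpy 2.4.6, scipy 1.17.1, pandas 2.3.3, matplotlib 3.10.9), and the Scrublet method in scanpy 1.11.5 for doublets. Its automatic threshold marked under 0.5% of cells, so the cells with the highest scores, 0.8% per 1000 cells, were marked. Doublets stayed in the main analysis.

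Named genes were the 15 with the largest fold in each direction against T cells and the 10 highest against other immune cells (at least 50 CPM in the higher group), those called in the Itgam split, up to 4 of each list by level, markers at 0, and the 10 most abundant. Other genes named were chosen after their values were seen, and some genes are not reported here. Symbols were matched to GENCODE M21 for coordinates. Cell groups of 1 mouse come from the same animal, which pairs them by design; same-mouse deviations had r of 0.0636, -0.00983, and 0.029 in mice 2, 3, and 4 for NK against T cells, -0.0186, 0.0155, and -0.160 against other immune cells, and 0.113, 0.000525, and 0.176 in the Itgam split, and a block by mouse was tried as an alternative. The cutoff for cells that carried epithelial, stromal, or endothelial RNA, the Mki67 and Top2a share, and the lists without Gzma or Klrb1b were added after seeing the data.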

Additional observations from a re-analysis of the deposited data

Results flagged for a closer look

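The filter on genes and mitochondrial UMIs left out 4 cells that met every UMI condition of the NK gate. They were flagged as signal in cells outside the comparisons. Their median mitochondrial share was 20.8%, just above the limit of 20%. No group had 4 or more samples, and no test for a single deviating sample was made.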

How the results depend on the processing

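Under the alternatives 126 summary values stayed close to those reported and 33 moved. With Cd3d, Cd3g, Trbc2, and Cd79b at 0 as well, NK cells were 0.262% of kept cells and 0.625% of immune cells, 76.7% had 2 UMIs of the dividing list and 64.9% an Eomes UMI, 77 genes were higher than in T cells, 192 were higher and 705 lower than in other immune cells, and 1 gene differed by Itgam. There the share with 2 UMIs of Mki67 and Top2a was 20%, 0%, and 0% of the 5, 13, and 2 NK cells in mice 2, 3, and 4. With cells limited to 500 genes or more and 10% mitochondrial UMIs or less, NK cells were 4.10% of immune cells and 5 genes differed by Itgam. Thinned to 1000 UMIs, 31.3% had 2 dividing UMIs and 36.9% an Eomes UMI, and 3.09% had 2 UMIs of Mki67 and Top2a. Before thinning the last share was 11.1%. The share with at least 2 UMIs of the dividing list was 92.5% in NK cells and 91.8% in T cells (exact permutation p = 1). It was 57.9% in B cells too, of which 2.91% had at least 2 UMIs of Mki67 and Top2a. The list share is therefore not a share of dividing cells. Without cells that carried epithelial, stromal, or endothelial RNA, 287 genes were higher and 289 lower than in T cells, and 12 differed by Itgam. Without a filter on low counts, 303 genes were lower than in T cells and 133 differed by Itgam. Library size alone gave 946 genes higher than in other immune cells. The Itgam count was 1 without marked doublets and 7 by DESeq2. Leaving out 1 mouse in turn gave 75 to 99 higher and 76 to 94 lower genes against T cells, 266 to 479 and 543 to 886 against other immune cells, and 0 to 28 by Itgam. The cause of these moves was not tested. Of 116 named genes tested against T cells, 61 were called, and 44 to 61 of them stayed called across the alternatives, the fewest with the stricter Cd3 and Trbc2 condition. Of the other values 69 fell short of the threshold, 51 newly passed it, and 1 turned: Mgp, a stromal gene, had a log2 fold change of 3.43 when T cells needed 3 UMIs of Cd3e and Trac.

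With the replicate block, 139 genes were higher and 130 lower than in T cells (135 and 126 of them called without it), 457 and 966 against other immune cells, and 32 by Itgam. Among the named genes, Fyn, Rora, and Gapdh lost their call. By list, the block changed the higher calls of adaptors from 8 to 5, activating receptors from 8 to 10, inhibitory receptors from 5 to 4, and cytokine receptors from 5 to 4, and it took 1 lower call each from the transcription factor, trafficking, ILC2, interferon, glycolysis, and immediate early lists. Sums of 16 to 41 cells per mouse limit the depth, and p-values rest on 3 mice.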
